A study of Mus musculus with 4 samples.

Results

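The genes of the eukaryotic elongation factors eEF1 and eEF2 were followed in ribosome profiling (Ribo-seq) of early meiotic mouse germ cells, together with the eEF2 kinase gene and the gene of the elongation factor eIF5A. They were taken from the deposited table by symbol (*Eef1a1*, *Eef1b2*, *Eef1d*, *Eef1g*, *Eef2*, *Eef2k* and *Eif5a*), and all 7 were among its 11598 genes. Ribo-seq counts the short mRNA fragments that a translating ribosome shields from nuclease, here treated with RNase I after cycloheximide. The cells were leptotene and zygotene spermatocytes, the first stages of meiotic prophase, sorted by FACS on DNA staining from testes of mice at postnatal day 12, with 2 libraries described as independent biological replicates for each genotype. In *Eef1g*-cKO mice, Cre recombinase expressed from a *Stra8*-GFPCre allele removed exons 2 to 7 of a floxed *Eef1g* allele in male germ cells, on a C57BL/6J background. The other genotype, named control in the titles and wild type in the genotype label, is called control here, and the alleles that those mice carried, the number of animals behind each library and the extent of recombination in the sorted cells were not given. The p-values therefore measure the spread between these 4 libraries.

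In translation elongation, eEF1A carries each aminoacyl-tRNA to the ribosome as a complex with GTP. The eEF1B complex recharges eEF1A by exchanging its GDP: eEF1B2 (eEF1Bα) and eEF1D (eEF1Bδ) hold the exchange activity, eEF1G is the subunit that anchors and scaffolds them, and valyl-tRNA synthetase (*Vars*) binds the complex through eEF1D. Next, eEF2 moves the ribosome by 1 codon, its kinase eEF2K inhibits it by phosphorylation, and eIF5A, which carries the modified lysine hypusine, relieves ribosomes stalled at difficult peptide bonds such as those between prolines. The mRNAs of eEF1A, the eEF1B subunits and eEF2, like those of ribosomal proteins, begin with a 5′ terminal oligopyrimidine (TOP) tract through which mTOR signaling controls their translation.

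By RefSeq's exon numbering, the deleted exons hold 845 of the 1314 coding bases of *Eef1g* (64.3%; GRCm38.p6, RefSeq annotation, chr19:8967041-8978180, plus strand, 10 exons). Their length leaves a remainder of 2 bases when divided by 3, and 469 coding bases (35.7%) lie in the exons left. They span 4893 bases of the genome, which is longer than the deletion that the methods state, and the transcript that the methods cite is annotated to another gene, so that the match of exon numbers to the allele is uncertain. The ends of the deletion under this numbering in the mature coding sequence are shown because a read that lies across either junction can come from the intact gene but not from an allele recombined in this way. Capitals mark the deleted exons, exon 2 in the first sequence (spliced, chr19:8967214-8968233) and exon 7 in the second (spliced, chr19:8973094-8977332).
Eef1g exon 1 into exon 2: atggcggctgggACCCTGTACACATACCCT
Eef1g exon 7 into exon 8: TCACCTGCCCAAGAGtacctttgtgttgga

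Several of these genes have processed copies elsewhere in the genome, so a footprint need not belong to a single locus. Of all 30-base windows in the coding sequence, a length within the range the study selected, an exact copy outside the gene was found for 1224 of 1285 windows of *Eef1g* (95.3%, at 12 loci) and 1209 of 1360 windows of *Eef1a1* (88.9%, at 22 loci). The share was 187 of 436 for *Eif5a* (42.9%), 739 of 2548 for *Eef2* (29%), 162 of 649 for *Eef1b2* (24.96%), 358 of 1954 for *Eef1d* (18.3%) and 0 of 2146 for *Eef2k*. How reads with several matches were counted is not given in the sources used here, and levels set between genes are limited by that. The window with the most copies is printed as an example of a footprint that cannot be placed: it stands in *Eef1a1* (spliced, chr9:78479180-78479294, minus strand, from coding base 1013) and has 14 exact copies elsewhere.
Eef1a1 window: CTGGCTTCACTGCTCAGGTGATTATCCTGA

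**Figure D1:**
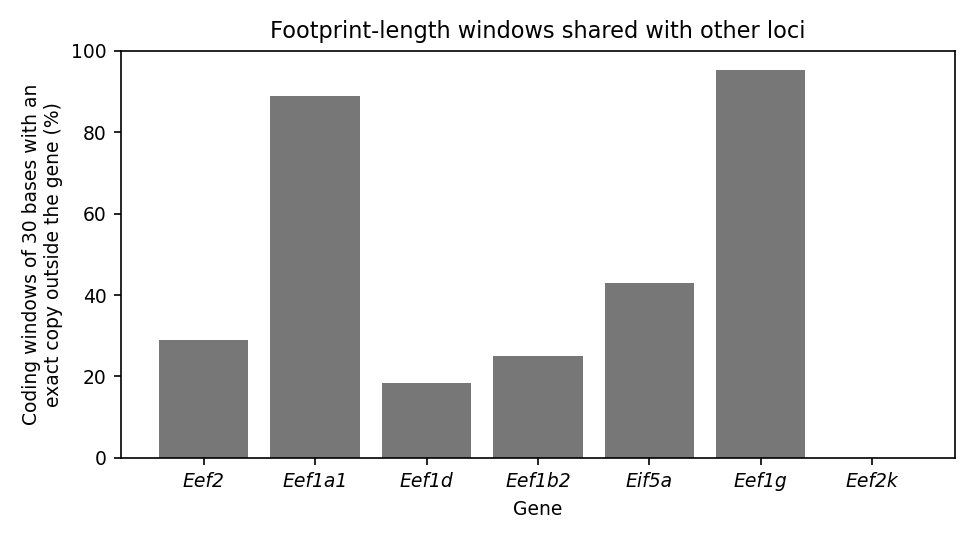
The bars give the percentage of all 30-base windows in each gene's coding sequence (GRCm38.p6, RefSeq) that have an exact copy outside the gene. *Eef1g* (95.3%) and *Eef1a1* (88.9%) stand far above the other 5 genes, and *Eef2k* has none.

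The paralogs, in contrast, can be told apart by a footprint of this length. *Eef1b2* and *Eef1d* encode related exchange domains but share no 30-base window, and their longest common run is 17 bases. The stretch around it is shown because the same region of the 2 subunits can still be assigned to the right gene, with 46 identical and 14 different bases and the differences in capitals (*Eef1b2*, chr1:63179271-63179330, plus strand; *Eef1d*, spliced, chr15:75895891-75896266, minus strand).
Eef1b2: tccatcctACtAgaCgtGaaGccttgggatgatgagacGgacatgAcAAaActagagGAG
Eef1d: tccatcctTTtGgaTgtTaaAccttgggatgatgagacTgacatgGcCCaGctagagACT
*Eef1a1* and *Eef1a2* shared a longest run of 23 bases and *Eif5a* and *Eif5a2* one of 14, with 0 common 30-base windows in both pairs.

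The control libraries held 2479504 and 1384282 reads counted on genes and the *Eef1g*-cKO libraries 223906 and 407979, so that values in the knockout rest on far fewer reads, and a gene had a median of 60, 34, 5 and 8 reads. Of 10 markers of leptotene and zygotene spermatocytes, 9 were listed and had reads in every library, and their sum was 4257 and 3132 reads per 1000000 counted reads (RPM) in control against 7217 and 6768 in *Eef1g*-cKO. The list did not move as a whole: by limma with adjusted p, the synaptonemal and recombination genes *Sycp3*, *Dmc1* and *Hormad1* rose, *Stra8*, a gene of meiotic entry, fell (-1.21 on the log2 scale, adjusted p = 0.0379) and the other 5 were not called. For spermatogonia, the cells that precede meiosis, all 7 markers were listed, and their sum was 1306 and 1669 RPM in control against 272 and 299 in *Eef1g*-cKO, where *Gfra1*, *Nanos3* and *Id4* were at 0 in the first library. Of these 7, 3 (*Zbtb16*, *Kit* and *Dmrt1*) fell by limma's moderated test with adjusted p. Over all tested genes the shares called by that test were 4.97% lower and 2.87% higher. The 5 listed Sertoli cell markers of 7 summed to 136 and 46.2 RPM in control against 35.7 and 17.2 in *Eef1g*-cKO, and the 3 peritubular markers to 125 and 91.7 against 49.1 and 56.4. Leydig cell and spermatid markers summed to at most 25.3 in any library and no macrophage marker was listed. By staining sorted cells for SYCP3 and γH2AX, the paper reported a comparable enrichment of leptotene and zygotene spermatocytes in both genotypes. The marker levels above move with the genotype beside every result on the elongation factors, and their part in those results was not tested. In such pools, fewer cells of a type and fewer footprints per cell cannot be told apart.

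The main test was limma on log2(FPKM + 1) over the 10475 genes that averaged 1 FPKM or more, with Benjamini-Hochberg adjustment over all of them, and a gene was called at adjusted p under 0.05 with a log2 fold change beyond 1. FPKM are reads per kilobase of the deposited gene length per 1000000 reads counted, and a fold change on this scale understates the change of low genes. All 7 elongation factor genes passed the filter. In 6 of them both *Eef1g*-cKO libraries lay below both control libraries, an order that 37.7% of all tested genes showed, and 7 of 7 fold changes were below 0, as for 59.1% of all tested genes. 1 gene, *Eef1d*, fell by adjusted p (background 4.97%) and 0 rose (background 2.87%). By unadjusted p with the same fold, 4 fell (*Eef1b2*, *Eef1d*, *Eef1g* and *Eef2k*; background 16.3%) and 0 rose (background 7.32%). These same 4 were called lower by edgeR with adjusted p on the recovered reads (background 11.2%), and 3 of them without *Eef1g* by DESeq2 (background 5.34%). The median fold change of the 7 genes was -1.09 on the log2 scale, beside -0.23 over all tested genes. This median and the counts over the 7 genes include *Eef1g*, the gene deleted by design, and were not repeated without it.

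**Figure D2:**
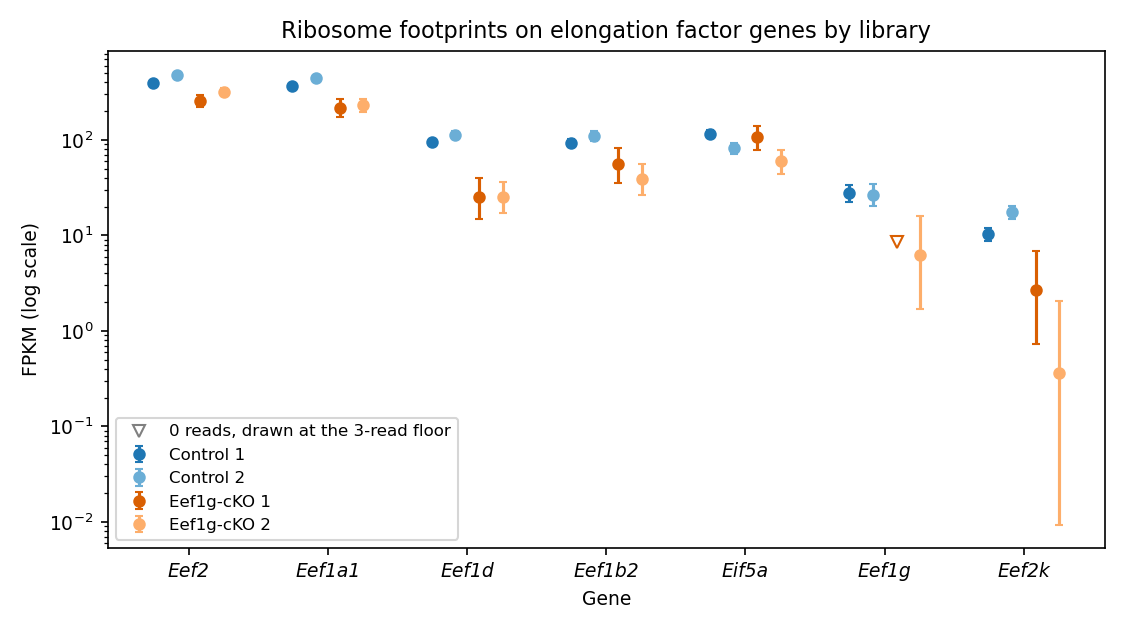
Points give the FPKM (log scale) of each gene in each of the 4 libraries, with 95% exact intervals for counting error, and the open triangle is drawn at the 3-read floor where a library had 0 reads. The *Eef1g*-cKO points of *Eef1d*, *Eef1b2*, *Eef2* and *Eef1a1* lie below the control points, while of those of *Eif5a* 1 lies between the control points and 1 below them.

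*Eef1g*, the deleted gene and scaffold of the eEF1B complex, was read first because it checks the labels. Its counts were 107 and 58 in control (27.6 and 26.8 FPKM) and 0 and 4 in *Eef1g*-cKO (0 and 6.26 FPKM). Both knockout libraries were thus below both controls, in the direction that their labels give. With reads summed per genotype, *Eef1g*-cKO stood at 14.8% of control (95% exact interval 3.99 to 38.7%, which like every such interval here covers counting error only). The library without a read had a 95% exact upper limit of 10.5 FPKM, and 3 reads there would give 8.56 FPKM. The limma fold change was -3.39 ± 0.91 (SE) on the log2 scale with adjusted p = 0.0731. By edgeR adjusted p was 0.0078 and by DESeq2 0.05003. Where the 4 reads lie within the gene cannot be read from a table of totals, and of the 61 windows of *Eef1g* without a copy elsewhere, 36 touch exons 2 to 7 of this numbering and 25 do not.

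*Eef1a1*, which encodes the tRNA carrier eEF1A1, drew 1623 and 1093 reads in the controls and 87 and 168 in the knockouts, which gave 366 and 441 FPKM against 217 and 230 FPKM. The groups did not overlap, and the mean of 224 ± 9.18 FPKM (SD, n = 2) in the knockout was 55.4% of the 404 ± 53.4 FPKM (SD, n = 2) in control. The difference was -0.84 ± 0.21 (SE) on the log2 scale and was not called (limma, adjusted p = 0.0615), and among all tested genes 28.4% had a lower fold change. By edgeR the adjusted p was 0.0138, with a fold change of -0.77 that stayed short of the fold required. The single copy of *Eef1a1* that the table lists as a gene of its own, the predicted gene *Gm6548*, had 27, 8, 0 and 2 reads.

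*Eef1b2*, the exchange factor subunit eEF1Bα, drew 445 and 293 reads in control, against 24 and 31 in *Eef1g*-cKO. Its level was 92.8 and 109 FPKM in control and 55.5 and 39.3 FPKM in *Eef1g*-cKO, again without overlap. The mean in the knockout was 46.8% of control and the log2 fold change -1.09 ± 0.25 (SE; limma, adjusted p = 0.0561). edgeR called it lower (adjusted p = 0.00818), as did DESeq2 (adjusted p = 0.0442).

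*Eef1d*, the exchange factor subunit eEF1Bδ that tethers valyl-tRNA synthetase, fell. It had 716 and 469 reads in control (96.0 and 112.6 FPKM) against 17 and 31 in *Eef1g*-cKO (25.2 and 25.3 FPKM), so that the knockout mean was 24.2% of control. The log2 fold change was -2.0 ± 0.22 (SE; limma, adjusted p = 0.0225), and 6.79% of tested genes had a lower one. The call was also made by edgeR (adjusted p = 2.94e-05) and DESeq2 (adjusted p = 3.87e-06). It ended after thinning every library to an equal read total (limma, adjusted p = 0.117) and with a prior variance without a trend (0.0633). It also ended without either control library, where the fold change was -2.11 (first left out) or -1.89 (second left out). In all these settings every call over the whole table ended as well. Over 18 alternatives the fold change of *Eef1d* stayed between -2.11 and -1.79. The 2 knockout values lie much closer together than their counting error, since the 95% exact intervals run from 14.7 to 40.4 FPKM and from 17.2 to 35.8 FPKM.

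*Eef1d* has 8 curated protein forms in RefSeq, of which the longest coding sequence spans 1983 bases and the shortest 774. The longer forms are known for a role in transcription under heat shock and the short form for that in elongation. The table gives 1 total for the gene, so that the fall could not be divided between forms.

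*Vars*, the valyl-tRNA synthetase that binds the eEF1B complex, drew 1172 and 687 reads in the controls but 26 and 40 in the knockouts. This gave 112 and 117 FPKM against 27.5 and 23.2 FPKM, with a log2 fold change of -2.14 ± 0.22 (SE; limma, adjusted p = 0.0216), and it was called lower. Its call ended without either control library, as every call over the whole table did. The fold change was then -2.17 (first left out) or -2.10 (second left out). The other genes listed with it as isoforms and partners of eEF1 were not called: *Eef1e1*, a scaffold protein of the multi-synthetase complex, had a fold change of -0.98 (limma, adjusted p = 0.0694), *Tpt1*, which binds the exchange factors, -0.92 (limma, adjusted p = 0.115), and *Eef1a2*, the eEF1A isoform of muscle and neurons, -1.01 (limma, adjusted p = 0.408) from 22, 4, 1 and 0 reads. Of these 4 genes 1 was thus called lower (background 4.97%) and 0 higher (background 2.87%). edgeR (background 11.2% lower) and DESeq2 (background 5.34% lower) likewise called *Vars* alone of the 3 that they tested.

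Ratios of genes within a library do not depend on how that library is scaled, and they show how the subunits stood to each other. Each is given as footprints per kilobase of deposited length, in percent of the second gene. *Eef1d* stood at 26.2 and 25.5% of *Eef1a1* in the control libraries and at 11.6 and 10.97% in the *Eef1g*-cKO libraries. These groups were far apart, with a log2 difference of -1.20, and the 95% exact intervals of the knockout (6.47 to 19.7% and 7.23 to 16.2%) ended below those of control (from 22.8%). *Eef1b2*, the other exchange subunit, stood at 25.4 and 24.8% of *Eef1a1* in control and at 25.5 and 17.1% in *Eef1g*-cKO. Here the groups overlapped, and the log2 difference of -0.26 was 0.0251 without the second knockout library. The 2 exchange subunits set against each other gave *Eef1d* at 103 and 103% of *Eef1b2* in control and at 45.5 and 64.2% in the knockout, a log2 difference of -0.93 without overlap, though the interval of the second knockout library (37.8 to 109%) reached the control values.

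*Eef1g* stood at 7.54 and 6.07% of *Eef1a1* in control, at 0% in the first knockout library, where 3 reads would give 3.94%, and at 2.72% in the second. The interval of 2.72%, from 0.733 to 7.10%, includes the value of the second control library. Against *Eef1b2* it stood at 29.7 and 24.4% in control, at 0% in the first knockout library (15.4% at 3 reads) and at 15.9% in the second. The interval of that last value, 4.09 to 45.1%, spans both control values. The ratio of *Vars* was separated by genotype against *Eef1a1* and overlapped against *Eef1d*: it stood at 30.6 and 26.6% of *Eef1a1* in control against 12.7 and 10.1% in the knockout, whereas it was at 117 and 104% of *Eef1d* in control and at 109 and 91.9% in the knockout. With 2 libraries against 2, the two-sided exact permutation test cannot give a p below 0.333, and each ratio without overlap had that value.

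**Figure D3:**
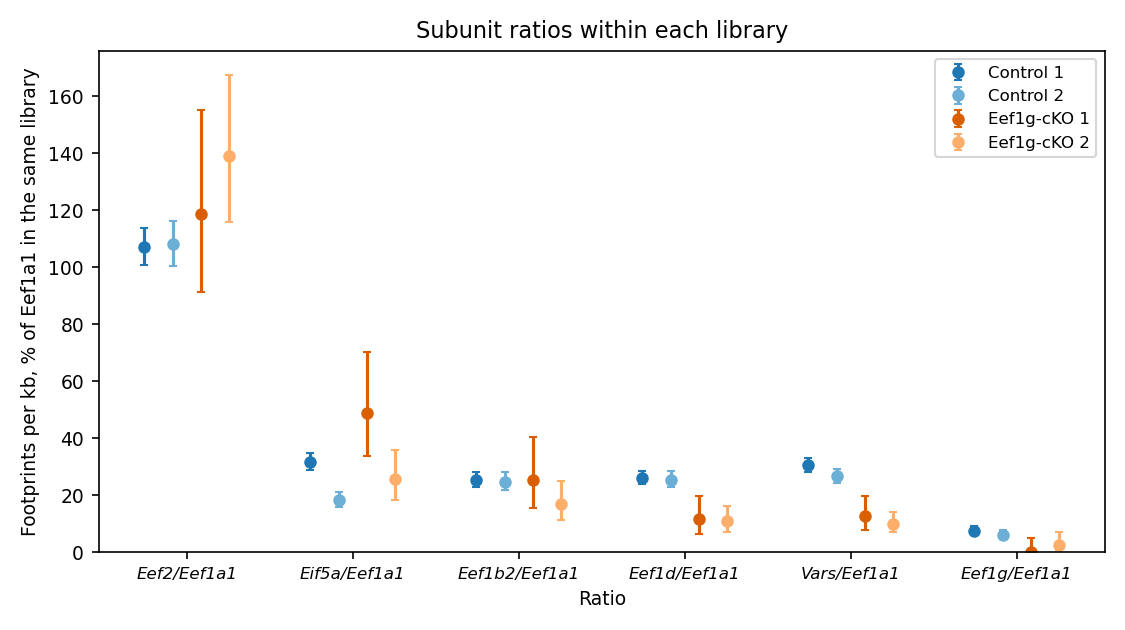
Points give the footprints per kilobase of deposited length of 6 genes as a percentage of *Eef1a1* in the same library, with 95% exact intervals for counting error. The level of each ratio depends on the length used. The *Eef1d* and *Vars* ratios of the 2 *Eef1g*-cKO libraries lie below those of control, the *Eef1b2* and *Eif5a* ratios overlap, and both knockout values of *Eef2* lie above control, at 119 and 139%.

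*Eef2*, the translocation factor gene, was the most heavily read of the 7, at 3010 and 2045 reads in the controls and 179 and 405 in the knockouts. Its level was 392 and 477 FPKM in control and 258 and 320 FPKM in the knockout, which did not overlap. The knockout mean was 66.6% of control and the log2 fold change -0.59 ± 0.23 (SE; limma, adjusted p = 0.151), which was not called there or by edgeR (adjusted p = 0.0971). Relative to *Eef1a1*, *Eef2* stood at 107 and 108% in control and at 119 and 139% in *Eef1g*-cKO, a log2 difference of 0.26. The interval of the first knockout library, 91.4 to 155%, includes the control values.

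*Eef2k*, whose product inhibits eEF2, drew 172 and 163 reads in the controls but 4 and 1 in the knockouts. This was 10.3 and 17.5 FPKM against 2.66 and 0.365 FPKM, the lowest FPKM of the 7 genes in control and without overlap. The summed reads put the knockout at 9.13% of control (95% exact interval 2.94 to 21.5%). The log2 fold change was -2.70 ± 0.62 (SE; limma, adjusted p = 0.0557), and the fall was called by edgeR (adjusted p = 0.000432) and DESeq2 (adjusted p = 0.000975). As a share of *Eef2*, it stood at 2.64 and 3.68% in control and at 1.03 and 0.114% in the knockout. The interval of the first knockout library, 0.278 to 2.69%, reaches the value of the first control library. Unlike those of the other members, none of its windows has a copy elsewhere.

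Of 8 listed genes that make diphthamide, the modified histidine of eEF2, or methylate eEF2, 0 were called by adjusted p in either direction by limma. The limma background was 4.97% lower and 2.87% higher, and the median fold change of the 8 was -0.41 on the log2 scale. DESeq2 tested 8 and called 0 (background 5.34% lower), and edgeR tested 6 and called 0 (background 11.2% lower). The 3 calmodulin genes, whose product activates eEF2K, were likewise not called by any of these tools, with fold changes from -0.24 to 0.63. By limma's unadjusted p, 1 of the 8, the eEF2 methyltransferase gene *Eef2kmt* (-1.59 on the log2 scale), and 0 of the 3 were lower (background 16.3%). In both lists 0 were higher (background 7.32%).

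*Eif5a* differed from the other 6 in that its libraries overlapped. Its reads numbered 579 and 227 in the controls and 48 and 49 in the knockouts, which gave 116 and 81.3 FPKM against 106 and 59.5 FPKM. The spread within each genotype was as wide as the gap between them (98.5 ± 24.4 against 82.9 ± 33.0 FPKM, SD, n = 2). The log2 fold change was -0.28 ± 0.34 (SE; limma, adjusted p = 0.606), and it was 0.13 without the second knockout library. As a share of *Eef1a1* by deposited length, *Eif5a* stood at 31.6 and 18.4% in control and at 48.9 and 25.9% in the knockout.

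Its isoform and the enzymes of hypusine synthesis were given beside it. *Dhps*, deoxyhypusine synthase, was at 43.9 and 71.6 FPKM in control and at 50.3 and 44.2 FPKM in *Eef1g*-cKO, with a fold change of -0.25 on the log2 scale (limma, adjusted p = 0.602). *Dohh*, the hydroxylase of the second step, was at 60.9 and 105.6 FPKM in control and at 37.1 and 28.9 FPKM in the knockout, with -1.27 on the log2 scale (limma, adjusted p = 0.0671). The isoform *Eif5a2*, named here after its values were seen, drew 86 and 30 reads in the controls and 0 and 2 in the knockouts, or 10.5% of control over the summed reads (95% exact interval 1.26 to 39.0%). By limma with adjusted p 0 of the 3 were called (background 4.97% lower), and 2 were lower by unadjusted p (background 16.3%). By DESeq2 0 were called (background 5.34% lower). By edgeR *Dohh* (adjusted p = 0.0135) and *Eif5a2* (adjusted p = 0.0149) were called lower (background 11.2%).

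Among themselves, the 7 genes fell into levels that differed widely in control. As RPM per kilobase of coding sequence, *Eef2* (522 ± 72.3, SD, n = 2) and *Eef1a1* (520 ± 68.7) were not separated. *Eif5a* followed at 427 ± 106 and overlapped *Eef1a1* and *Eef2*. *Eef1b2* stood at 288 ± 33.6, below all 3 in every control library. *Eef1d* was at 158 ± 17.8 over its longest coding sequence and at 405 ± 45.7 over its shortest, so that its place depends on the form taken. *Eef2k* (43.0 ± 15.7) and *Eef1g* (32.4 ± 0.675) were lowest and overlapped, since *Eef2k* had 31.9 in the first control library. In *Eef1g*-cKO the values were 348 ± 53.0 for *Eef2*, 360 ± 143 for *Eif5a*, 288 ± 11.8 for *Eef1a1* and 135 ± 32.5 for *Eef1b2*, and those of *Eif5a* spanned those of *Eef1a1* and *Eef2*. Order between genes is open to the copies described above, above all for *Eef1g* and *Eef1a1*.

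Together, the 7 genes took 2683 and 3141 RPM in the control libraries and 1603 and 1689 in *Eef1g*-cKO. The groups did not overlap, and the knockout mean was 0.565 times that of control (2912 ± 324 against 1646 ± 60.4, SD, n = 2; two-sided exact permutation p = 0.333, the smallest possible). Leaving out *Eef1g* itself gave 0.572 times. *Eef1a1* and *Eef2* made up 69.6 and 72.2% of these reads in control and 74.1 and 83.2% in the knockout, while the share of *Eef1d* was 10.8% in both control libraries and 4.74 and 4.50% in the knockout. Ribosomal protein genes are the other large TOP mRNA family. The 66 listed were taken by symbol, paralogs such as *Rpl39l* included, and were not searched for copies elsewhere. They summed to 7099 and 8529 RPM in control and to 5471 and 5201 in the knockout (0.683 times). Of 65 tested, 7 were called lower by limma with adjusted p (10.8%, beside 4.97% of all tested genes) and 0 higher. They were *Rpl8*, *Rps3*, *Rpl13a*, *Rpl18* and *Rpl39l*, with fold changes from -2.60 (*Rpl18*) to -1.09 (*Rpl39l*) on the log2 scale, and *Rpl37a* and *Rpl13*. These last 2 had at most 10 reads in a control library and 0 in the knockouts, and edgeR's filter on low reads left both untested. DESeq2 gave no adjusted p for *Rpl13*, and *Rpl37a* was not among its calls. The calls of all 7 ended without either control library, as every call over the whole table did. When 1 library was left out, their fold changes ran from -3.26 (*Rpl37a*) to -0.92 (*Rpl39l*). By edgeR 9 of 43 tested were lower (background 11.2%) and by DESeq2 5 of 44 (background 5.34%). By limma's unadjusted p, 15 were lower (23.1%, beside 16.3%) and 1, *Rpl36*, higher (background 7.32%). The median fold change of the tested ribosomal protein genes was -0.74 on the log2 scale.

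**Figure D4:**
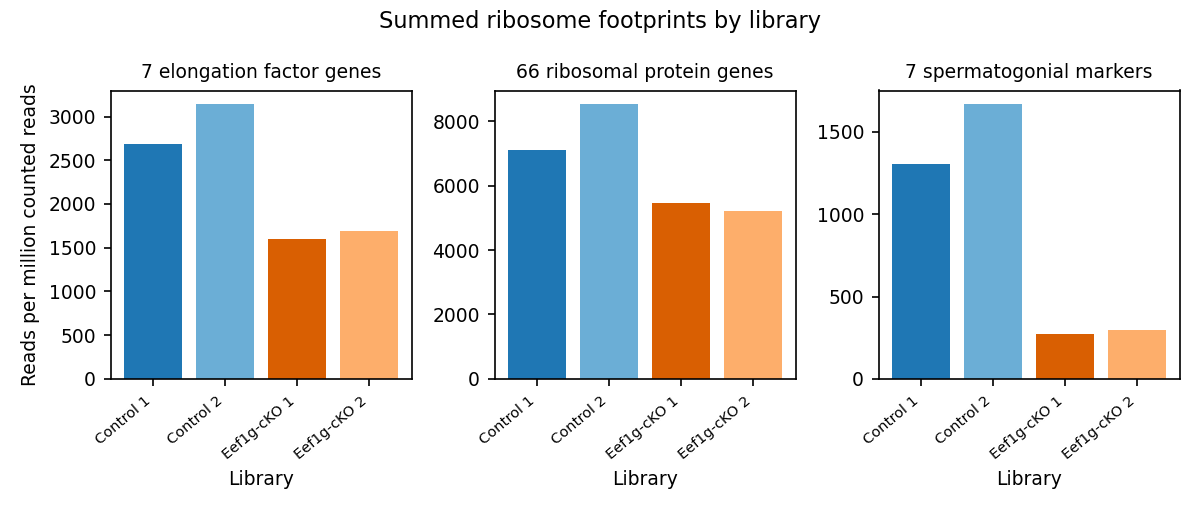
Bars give, for each of the 4 libraries, the summed reads per 1000000 counted reads of the 7 elongation factor genes, of 66 ribosomal protein genes and of 7 spermatogonial markers, each on its own axis from 0. All 3 sums are lower in both *Eef1g*-cKO libraries, and the spermatogonial sum is at 272 and 299 there against 1306 and 1669 in control.

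Of 11 genes of mTOR signaling and TOP mRNA control, limma called 1 lower by adjusted p (background 4.97%) and 0 higher (background 2.87%). The same gene alone was called by DESeq2, which tested 11 (background 5.34% lower), and by edgeR, which tested 10 (background 11.2% lower). This was *Tsc2*, a brake on mTOR, which drew 365 and 186 reads in the controls and 11 and 14 in the knockouts, at a fold change of -1.63 ± 0.34 (SE) on the log2 scale (limma, adjusted p = 0.0475). Its call ended without either control library, as every call over the whole table did. The fold change was then -1.57 (first left out) or -1.69 (second left out). *Larp1*, which binds TOP mRNAs, was at 13.0 and 7.75 FPKM in control and at 12.2 and 10.7 FPKM in the knockout, with overlap and a fold change of 0.17 (limma, adjusted p = 0.790). *Mtor* itself had a fold change of 0.30 (limma, adjusted p = 0.484). The 5 mitochondrial elongation factor genes (fold changes from -0.75 to 0.86), the 3 listed eEF1A lysine methyltransferase genes (from -1.96 to 0.03) and the selenocysteine elongation factor gene *Eefsec* (0.28) gave 0 calls by limma with adjusted p and 1 lower by unadjusted p, the eEF1A methyltransferase *Mettl13*, which edgeR (adjusted p = 0.00535) and DESeq2 called lower. Over all 8 lists, limma tested 38 genes and called 2 lower by adjusted p (5.26%, beside 4.97% of all tested genes) and 7 by unadjusted p (18.4%, beside 16.3%), with 0 higher and a median fold change of -0.24. These shares lie close to those of all tested genes. Of the genes that they tested on reads, edgeR called 5 of 33 lower (background 11.2%) and DESeq2 3 of 37 (background 5.34%), with 0 higher.

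**Figure D5:**
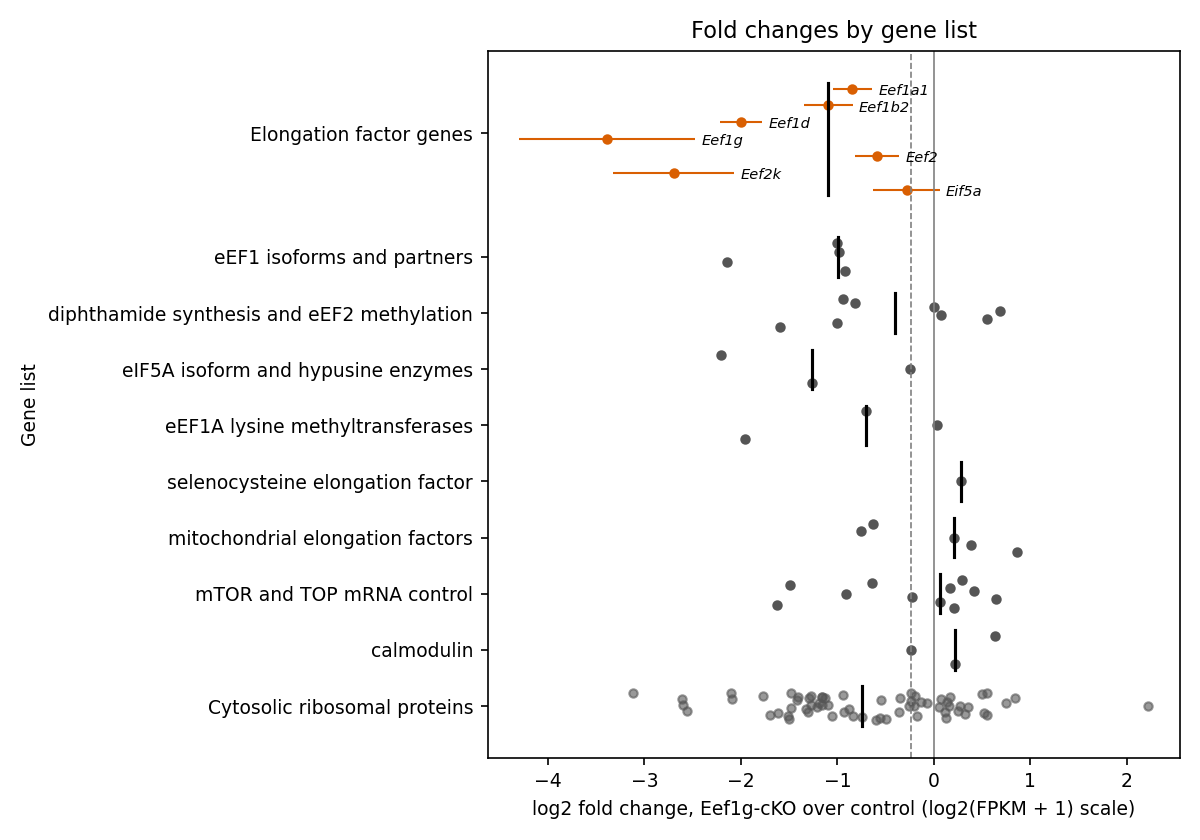
Each point is the limma log2 fold change of a gene, *Eef1g*-cKO over control, by gene list, with standard errors for the 7 elongation factor genes, vertical bars at the list medians and a dashed line at the median of all tested genes (-0.23). The elongation factor genes run from -3.39 (*Eef1g*) to -0.28 (*Eif5a*), and the ribosomal protein genes spread on both sides of 0 around a median of -0.74.

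For *Eef1a1*, *Eef1b2*, *Eef1d* and *Eef2*, the genes most like them in pattern were those at the smallest Euclidean distance of gene-centred log2(FPKM + 1) over the 4 libraries, among 2373 genes with at least 20 reads in every library (2374 for *Eef1d*, whose own lowest count was 17). With *Eef1a1* these were *Cap1* (0.0348), *Magoh* (0.0622) and *Kif22* (0.0674), beside a median distance of 1.20. With *Eef2* they were *Cpsf2* (0.0951), *Tomm34* (0.0951) and *Sfr1* (0.0986), and with *Eef1b2* they were *Phf13* (0.122), *Eif4a3* (0.134) and *Dek* (0.144). With *Eef1d* the nearest was *Dmrt1* (0.141), one of the spermatogonial markers above, at 199 and 259 FPKM in control and 59.5 and 59.9 FPKM in *Eef1g*-cKO, followed by *Pes1* (0.142) and *Incenp* (0.169). These distances rest on 4 libraries of 2 genotypes and describe likeness only.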

How the data were processed

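One table of the 4 Ribo-seq libraries was used. Its FPKM were computed by the authors per kilobase of gene length and 1000000 counted reads. Its normalized counts, a signal that the authors made by dividing reads by a size factor per library, were 100% whole multiples of 1 read (tolerance 0.01 read), which gave the reads back. Columns of the authors' own comparison (mean counts, log2 fold changes with their standard errors, a test score, p-values) were not used. Adapter trimming, quality filtering and genome alignment are stated in the methods, and the submitters' processing notes name cutadapt, Bowtie, STAR, mm10 and hg38 without roles. The counter, annotation and treatment of multiply mapped reads are not given in the sources used here.

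Groups came from the sample labels. limma 3.58.1 (lmFit, eBayes with trend, R 4.3.3) was run on log2(FPKM + 1) at a mean of at least 1 FPKM, for 2 against 2 libraries. It called 301 genes higher and 521 lower, or 521 and 383 with libraries centred on their medians, which moves the median fold change from -0.23 to -0.02. On the recovered reads edgeR 4.0.16 (quasi-likelihood) called 705 higher and 904 lower, and DESeq2 1.42.0 was a further alternative. The models were tested on simulated data with a common dispersion for all genes, which does not bear on the calls of single genes. Ratios and sums were compared by exact permutation (scipy 1.17.1, Python 3.11.15), with 95% exact binomial intervals and a floor of 3 reads that cover counting error only (whether molecular identifiers were used is not given in the sources used here). Sequences and coordinates are from the GRCm38.p6 RefSeq genome. Small non-coding RNA genes held 8.76 to 14.3% of counted reads. The genes named are the 7 elongation factor genes, list members past adjusted p and fold, *Eef1a2*, *Eef1e1*, *Vars*, *Dhps*, *Dohh*, *Larp1* and the 3 nearest patterns; *Tpt1*, *Mtor*, *Eefsec*, *Eif5a2*, *Mettl13*, *Eef2kmt*, *Rpl36* and *Gm6548* were added after their values were seen. The genes and lists were chosen with earlier results of these data known. The mRNA levels of the study were not used here, so footprint totals are not set against mRNA.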

Additional observations from a re-analysis of the deposited data

How the results depend on the processing

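Over 18 alternatives the fold changes of *Eef1a1*, *Eef1b2*, *Eef1d*, *Eef1g*, *Eef2* and *Eef2k* kept their sign in each, and that of *Eif5a* in 17, running from -0.70 to 0.13 when 1 library was left out and above 0 without the second *Eef1g*-cKO library. *Eef1d* was called in 14, *Eef1b2* in 9, *Eef2k* in 8, *Eef1g* in 7 and *Eef1a1*, *Eef2* and *Eif5a* in 0. *Vars* was called lower in 14 and *Tsc2* in 11, and *Rpl18* in 13, *Rpl13a* and *Rps3* in 12, *Rpl8* in 10 and *Rpl39l* in 9. *Rpl37a* and *Rpl13*, which could be fitted in 15, were called in 8 and 7, with fold changes from -6.28 to -1.34 and from -5.65 to -0.99. When 1 library was left out, the fold change of *Dhps* ran from -0.59 to 0.10 and that of *Larp1* from -0.17 to 0.51.

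The number of elongation factor genes called lower by adjusted p, 1 in the limma test, was 4 with a pseudocount of 5 FPKM, 2 at a minimum mean of 5 FPKM, 2 with the total taken without small non-coding RNA, 0 without a variance trend, 0 with libraries thinned to the same reads, 3 by DESeq2, 4 by edgeR and 4 by edgeR without a filter. Leaving out 1 library gave 0 to 4, and 1 to 4 by unadjusted p. Over the whole table, genes called higher by adjusted p numbered 29 (pseudocount 0.1 FPKM), 0 (no variance trend), 521 (centred), 0 (thinned), 705 (edgeR), 689 (edgeR, no filter), 502 (DESeq2) and 0 to 537 (leaving out 1 library), beside 301. Those called lower numbered 47, 0, 383, 0, 904, 876, 451 and 0 to 1432 in the same order, beside 521. Where limma gave 0, it called 793 higher and 1811 lower (no variance trend) and 728 and 1287 (thinned) by unadjusted p, and leaving out 1 library gave 479 to 999 and 795 to 2270. By unadjusted p, 496 (pseudocount 5 FPKM) and 1157 (centred) were higher, beside 767, and 1001 (pseudocount 5 FPKM), 1064 (minimum 5 FPKM) and 958 (DESeq2) were lower, beside 1705.

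The libraries of both genotypes carry replicate numbers 1 and 2, but same-numbered libraries did not deviate together (r = -0.00804 over 10475 genes), so the numbers were not taken to pair them. With the replicate number as a block, limma called 4 elongation factor genes and 822 genes lower, and edgeR 4 and 988, with 758 higher by edgeR.

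The log2 difference of the *Eef1b2* to *Eef1a1* ratio ran from -0.56 to 0.0251 when 1 library was left out. That of *Eef1d* to *Eef1a1* ran from -1.24 to -1.15. Depth limits *Eef1g* and *Eef2k* most, with 4 and 5 reads over both *Eef1g*-cKO libraries, and leaving out 1 of these libraries gave fold changes of -1.96 and -4.82 for *Eef1g* and of -3.41 and -1.99 for *Eef2k*. The cause of these changes was not tested.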
